A study of Mus musculus with 8 samples.

Results

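Nrf2, encoded by Nfe2l2, is the transcription factor that switches on genes for glutathione synthesis, thiol reduction, haem breakdown and iron storage when a cell meets oxidants or electrophiles. In resting cells its protein is held and marked for destruction by Keap1, an adaptor of a Cullin 3 ubiquitin ligase, and oxidation of Keap1 cysteines lets Nrf2 build up, pair with a small Maf protein and bind antioxidant response elements in its target genes. Activated Ras is known to raise Nrf2 activity in mouse fibroblasts, and much of Nrf2 control acts on the protein, which read counts do not measure. The 10 genes described here were taken by symbol from the 23420 gene symbols of each library: Nfe2l2 and Keap1, and the targets Nqo1, Hmox1, Gclc, Gclm, Txnrd1, Srxn1, Prdx1 and Fth1. All 10 were found and all 10 passed the filter on low counts.

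The 8 RNA-seq libraries came from mouse embryonic fibroblasts of strain background C57BL6/N, 4 of them with the genotype Neat1-/- (called Neat1 null here) and 4 wild-type. Cells of both groups expressed the adenoviral oncoprotein E1A, which inactivates the retinoblastoma protein, and the activated Ras HRasV12, so there is no untransformed cell in the comparison. Neat1 is the long noncoding RNA that scaffolds paraspeckles, a kind of nuclear body, and the design sets transformed cells without it against transformed cells with it. Whether replicates are separate embryos, cultures or clones is not stated in the labels. The p-values therefore reflect only the spread among these 8 libraries. By the sex markers given below, Neat1 null library 3 was female and Neat1 null libraries 1, 2 and 4 male. The Neat1 null libraries are therefore not all repeats of a single embryo. How much of the spread within groups is technical is not known.

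Neat1 itself had 6.92, 11.3, 7.90 and 6.12 CPM (counts per 1e+06 counts on genes, with TMM factors) in Neat1 null libraries 1 to 4, against 138, 588, 753 and 1320 CPM in wild-type libraries 1 to 4, which is -6.44 on the log2 scale (SE 0.66, edgeR adjusted p = 0.000762). Neat1 null libraries held 19651035 to 38950207 counts on genes and wild-type libraries 31651625 to 37069334. Neat1 null libraries 1 and 3 stood apart from the other 6 on the first principal component (109 and 91.2, against 17.3 and 28.0 in Neat1 null libraries 2 and 4 and -94.2 to -17.3 in wild-type). Relative to the other libraries, they also had the steepest loss of counts with gene length. Each gene's log2 CPM, less its mean over the 8 libraries, was set against log2 exon length. The slope was -0.316 and -0.481 in Neat1 null libraries 1 and 3, 0.00663 and -0.0539 in Neat1 null libraries 2 and 4 and 0.138 to 0.247 in wild-type libraries. Ribosomal protein genes took 25.4% and 15.0% of counts in Neat1 null libraries 1 and 3, 9.21% and 8.42% in Neat1 null libraries 2 and 4 and 5.99% to 7.05% in wild-type libraries. The ribosomal RNA gene Rn45s took 5.23% in Neat1 null library 1 and under 1% in each of the other 7. The part of these differences in the results below was not tested. By Xist and Y-linked genes, Neat1 null libraries 1, 2 and 4 were male and the other 5 libraries female. Of the fibroblast markers Vim and Fn1 were high in all libraries (at least 1233 and 431 CPM), while Col1a1 reached at most 5.75 CPM in Neat1 null and 12.4 CPM in wild-type libraries and Dcn stayed below 1 CPM. Of the 10 fibroblast markers 1 was called lower and 1 higher. Pdgfra, a growth factor receptor, had 3.92 to 10.9 CPM in Neat1 null and 40.9 to 148 CPM in wild-type libraries (log2 fold change -3.59, adjusted p = 0.00806), and S100a4 had 2.72 to 29.0 CPM in Neat1 null and 2.07 to 2.53 CPM in wild-type libraries (2.08, adjusted p = 0.0473). The 5 epithelial markers did not pass in edgeR, though Krt18, Krt19 and Krt8 had unadjusted p-values of 0.0317, 0.0371 and 0.0411. Their summed level over all 5 was 271 to 3292 CPM in Neat1 null and 199.5 to 683 CPM in wild-type libraries. Most of it was the keratin gene Krt18, with 179 to 3144 CPM in Neat1 null, highest in library 1, and 149 to 568 CPM in wild-type libraries (1.85, adjusted p = 0.105). Krt19 had a log2 fold change of 1.72 (adjusted p = 0.116), Krt8 1.52 (0.123), Cdh1 -1.19 (0.184) and Epcam 0.28 (0.588). The part of these marker differences in the results was not tested.

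Prdx1, peroxiredoxin 1, a thiol peroxidase that removes hydrogen peroxide, was the 1 gene of the 10 that passed the threshold (adjusted p under 0.05), and it was higher in Neat1 null libraries. Over all 13316 genes tested 17.7% passed, 9.97% of them higher and 7.72% lower as shares of all genes tested, so 1 of 10 is no more than the background. Nfe2l2 had the lowest fold change of the 10 and its groups did not overlap, but it lay just outside the threshold. The classical targets Nqo1, Hmox1, Gclc, Gclm and Txnrd1 overlapped between the groups and had log2 fold changes between -0.34 and -0.08. Srxn1 and Fth1 were raised in different pairs of Neat1 null libraries. The median log2 fold change of the 10 was -0.14, against -0.06 for all genes tested. At an unadjusted p under 0.05, 3 of the 10 were higher and 1 lower, against 2480 higher and 2309 lower of all 13316 genes tested. DESeq2 called 2 higher (Prdx1 and Fth1) and 1 lower (Nfe2l2), where it called 14.8% of all genes higher and 11.0% lower (25.8% in all).

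**Figure D1:**
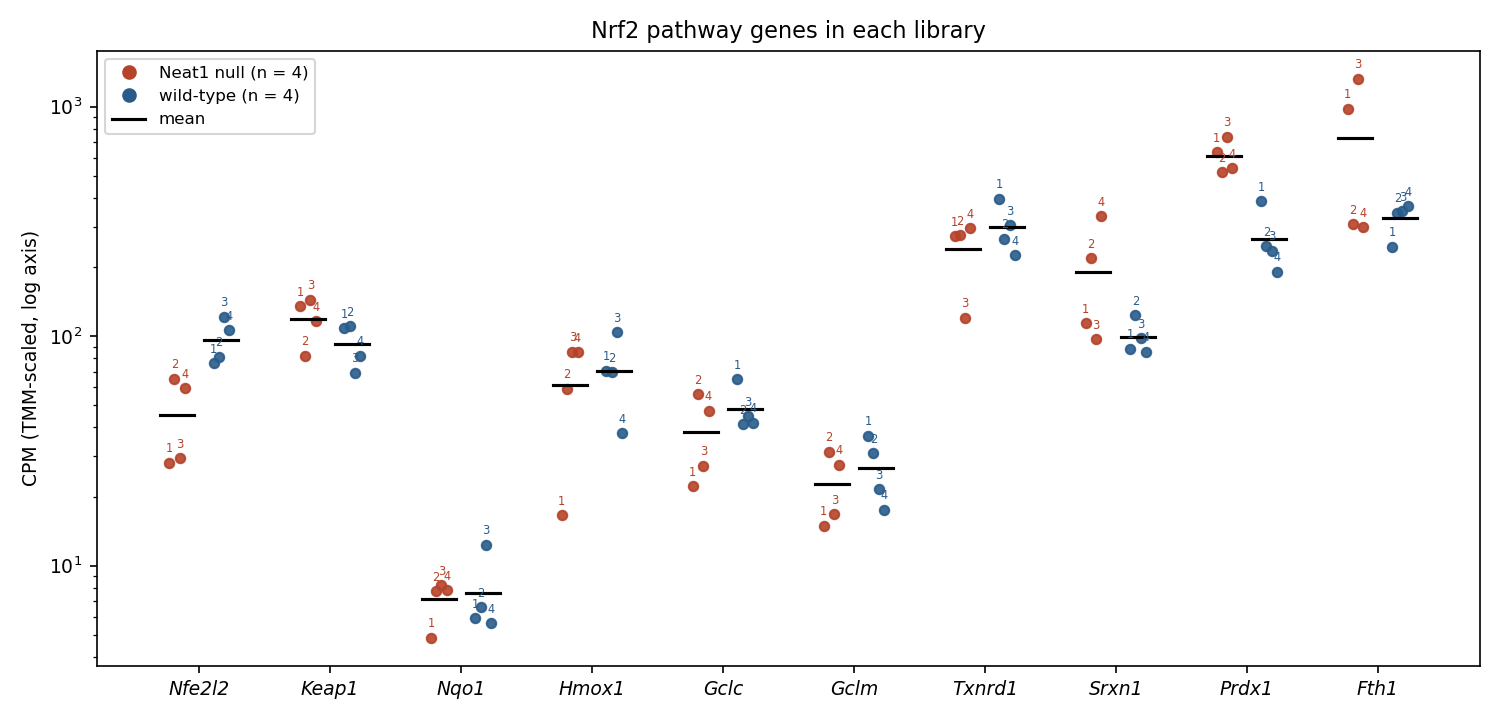
CPM (log axis) of the 10 Nrf2 pathway genes in each of the 4 Neat1 null and 4 wild-type libraries. Points carry the library number and black bars are group means. Every Nfe2l2 point of Neat1 null lies below the wild-type points (65.3 CPM at most against 76.4 CPM at least), every Prdx1 point lies above them, and the other 8 genes overlap.

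The antioxidant response element is a short DNA word, and its letters were looked for in the 250 bases before each annotated start in RefSeq (GRCm38.p6), on both strands. The search used TGACNNNGC, the element's core, TGANTCAGC, a stricter form with fewer free letters that overlaps the AP-1 site, and TGACTCA, the letters of the AP-1 site alone. Of the 10 genes 8 had an entry, with 11 start sites. TGACNNNGC was found before Nfe2l2, Gclm, Prdx1 and 1 of the Txnrd1 starts, and 10.2% of 32851 such windows in the genome hold it. TGANTCAGC was found before Prdx1 and Srxn1, and 1.02% of windows hold it. TGACTCA was also found before Prdx1 and Srxn1, at -237 to -231 and -131 to -125 before Prdx1 and at -102 to -96 and -45 to -39 before Srxn1, and 4.46% of windows hold it. The sites nearer the start overlap the stricter word, TGANTCAGC. Hmox1 and Gclc are named only. The stretches are shown for Prdx1, which was called, for Srxn1, which shares the stricter word, and for Nfe2l2, which encodes the factor. Each runs 5′ to 3′ on the gene's own strand from base -250. Those of Prdx1 and Srxn1 end at the base before the first transcript start that GENCODE M21 annotates in the window, and that of Nfe2l2 ends at base -1 of the RefSeq start. They are shown with the letters matched by TGACNNNGC or TGANTCAGC in capitals.
Prdx1: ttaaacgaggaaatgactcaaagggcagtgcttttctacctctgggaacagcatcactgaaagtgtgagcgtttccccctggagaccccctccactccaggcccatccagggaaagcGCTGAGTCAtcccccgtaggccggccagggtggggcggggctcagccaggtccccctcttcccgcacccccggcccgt
Srxn1: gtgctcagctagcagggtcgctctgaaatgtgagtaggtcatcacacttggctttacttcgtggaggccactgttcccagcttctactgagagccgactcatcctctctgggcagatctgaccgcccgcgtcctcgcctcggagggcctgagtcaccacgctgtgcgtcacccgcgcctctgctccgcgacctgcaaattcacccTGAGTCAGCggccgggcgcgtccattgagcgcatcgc
Nfe2l2: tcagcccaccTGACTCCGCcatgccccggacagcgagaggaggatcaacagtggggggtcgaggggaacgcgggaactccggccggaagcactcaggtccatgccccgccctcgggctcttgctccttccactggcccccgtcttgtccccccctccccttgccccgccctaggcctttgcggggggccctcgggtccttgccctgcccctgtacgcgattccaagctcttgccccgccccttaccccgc
The Prdx1 stretch is chr4:116685349-116685543 on the plus strand, and its capitals read TGACTCAGC on the other strand (bases -133 to -125), a match to both words at once. The Srxn1 stretch is chr2:152105274-152105515 on the plus strand, with TGAGTCAGC at -45 to -37. The Nfe2l2 stretch is chr2:75704664-75704913 on the minus strand, with TGACTCCGC at -240 to -232. A match is a description of letters and not of binding.

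Nfe2l2, which encodes Nrf2 (GRCm38 chromosome 2, 75675513 to 75704641, minus strand), had 28.1, 65.3, 29.3 and 59.2 CPM in Neat1 null libraries 1 to 4, against 76.4, 81.5, 121 and 106 CPM in wild-type libraries 1 to 4. All 4 Neat1 null libraries were below all 4 wild-type libraries, as were 11.0% of genes tested (22.6% did not overlap in either direction), and Neat1 null libraries 1 and 3 were the lowest. Mean CPM was 45.5 ± 19.5 in Neat1 null and 96.3 ± 21.2 in wild-type libraries (SD, n = 4 each). In bulk libraries fewer cells with a transcript and less of it per cell cannot be told apart. The log2 fold change was -1.08 (SE 0.37), with an adjusted p of 0.0562 in edgeR's quasi-likelihood test that did not pass. It was -0.95 (adjusted p = 0.0533) once length and GC trends of each library were taken out and -0.64 (adjusted p = 0.206) without Neat1 null libraries 1 and 3. The call changed with the tool and the scaling: DESeq2 gave an adjusted p of 0.0352 and upper-quartile factors 0.0385. The fit without Neat1 null library 2 also called it (-1.29, adjusted p = 0.0352).

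Keap1, the inhibitor of Nrf2 (chromosome 9, 21229730 to 21239361, minus strand), had 135, 82.0, 144 and 116 CPM in Neat1 null libraries, against 108, 110, 69.3 and 82.2 CPM in wild-type libraries. The groups overlapped, since Neat1 null library 2 lay below 3 wild-type libraries, and the log2 fold change of 0.37 (SE 0.34, adjusted p = 0.446, edgeR) was about the size of its error. An antisense gene, Gm16754, shares 10.9% of the Keap1 exon bases, and the strand setting of the counting was not given in the sources used here. The number of Keap1 reads per Nfe2l2 read, which needs no scaling between libraries, was 4.81, 1.26, 4.92 and 1.96 in Neat1 null libraries, against 1.42, 1.36, 0.571 and 0.775 in wild-type libraries. Only Neat1 null library 2 fell inside the wild-type range. This ratio was chosen after the values were seen and is given without a test.

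Gclc and Gclm encode the catalytic and the modifier subunit of glutamate-cysteine ligase, the rate-limiting enzyme of glutathione synthesis. Their profiles were the most alike of the 10 genes, though they did not move together in every library. Gclc (chromosome 9, 77754535 to 77794485, plus strand) had 22.2, 55.9, 27.2 and 47.3 CPM in Neat1 null libraries, against 65.0, 41.3, 44.7 and 42.0 CPM in wild-type libraries. Gclm (chromosome 3, 122245557 to 122270732, plus strand) had 14.9, 31.4, 16.7 and 27.5 CPM in Neat1 null libraries, against 36.9, 30.8, 21.6 and 17.5 CPM in wild-type libraries. In both genes Neat1 null libraries 1 and 3 were the lowest of all 8 and Neat1 null libraries 2 and 4 lay within the wild-type range. Their log2 fold changes were -0.34 (SE 0.36, adjusted p = 0.524) and -0.24 (SE 0.37, adjusted p = 0.670). Without Neat1 null libraries 1 and 3 they were 0.09 and 0.14, and after the length and GC correction that of Gclm was 0.27, so neither subunit has a direction that holds. The distance between their log2 profiles over the 8 libraries, each centred on its own mean, was 0.673, the smallest of the 45 pairs among the 10 genes. Gclc reads per Gclm read ranged from 1.49 to 1.78 in Neat1 null and from 1.34 to 2.40 in wild-type libraries. In wild-type libraries 2, 3 and 4 Gclc stayed at 41.3 to 44.7 CPM while Gclm went from 30.8 to 17.5 CPM.

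Txnrd1, the cytosolic thioredoxin reductase, which passes electrons from NADPH to thioredoxin (chromosome 10, 82833951 to 82897712, plus strand), had 272, 276, 120 and 295 CPM in Neat1 null libraries, against 397, 266, 304 and 225 CPM in wild-type libraries. Neat1 null library 3 alone lay below the wild-type range. The log2 fold change was -0.31 (SE 0.38, adjusted p = 0.586), and -0.07 without Neat1 null libraries 1 and 3. The other end of the same system, Prdx1 (chromosome 4, 116685544 to 116700822, plus strand), had 632, 519, 740 and 541 CPM in Neat1 null libraries, against 387, 246, 236 and 191 CPM in wild-type libraries. The 4 Neat1 null libraries lay within a 1.43-fold range and all stood above wild-type library 1, the highest of its group; 11.7% of genes tested were separated in this direction. Mean CPM was 608 ± 101 in Neat1 null and 265 ± 84.8 in wild-type libraries (SD, n = 4 each). This difference passed, at 1.20 on the log2 scale (SE 0.38, edgeR adjusted p = 0.0404). How any reads that Prdx1 shares with pseudogenes were counted was not given in the sources used here.

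The rise of Prdx1 was also seen after the length and GC correction (log2 fold change 1.47, edgeR adjusted p = 0.0355), where 7.71% of genes were called higher (12.4% in either direction). It was of similar size without Neat1 null libraries 1 and 3 (1.00, adjusted p = 0.147). In that fit 0.0497% of all genes tested were called, 0.0355% higher and 0.0142% lower. With any 1 library left out the log2 fold change was between 1.07 and 1.45. The call itself ended in the fits without Neat1 null library 3 (adjusted p = 0.0734), Neat1 null library 4 (0.0545), wild-type library 2 (0.0994), wild-type library 3 (0.135) and wild-type library 4 (0.167), and with the replicate number as a block (1.23, adjusted p = 0.0556). Leaving out Neat1 null library 3 left 13 genes called among all those tested, leaving out wild-type library 3 left 18 and leaving out wild-type library 4 left 11.

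**Figure D2:**
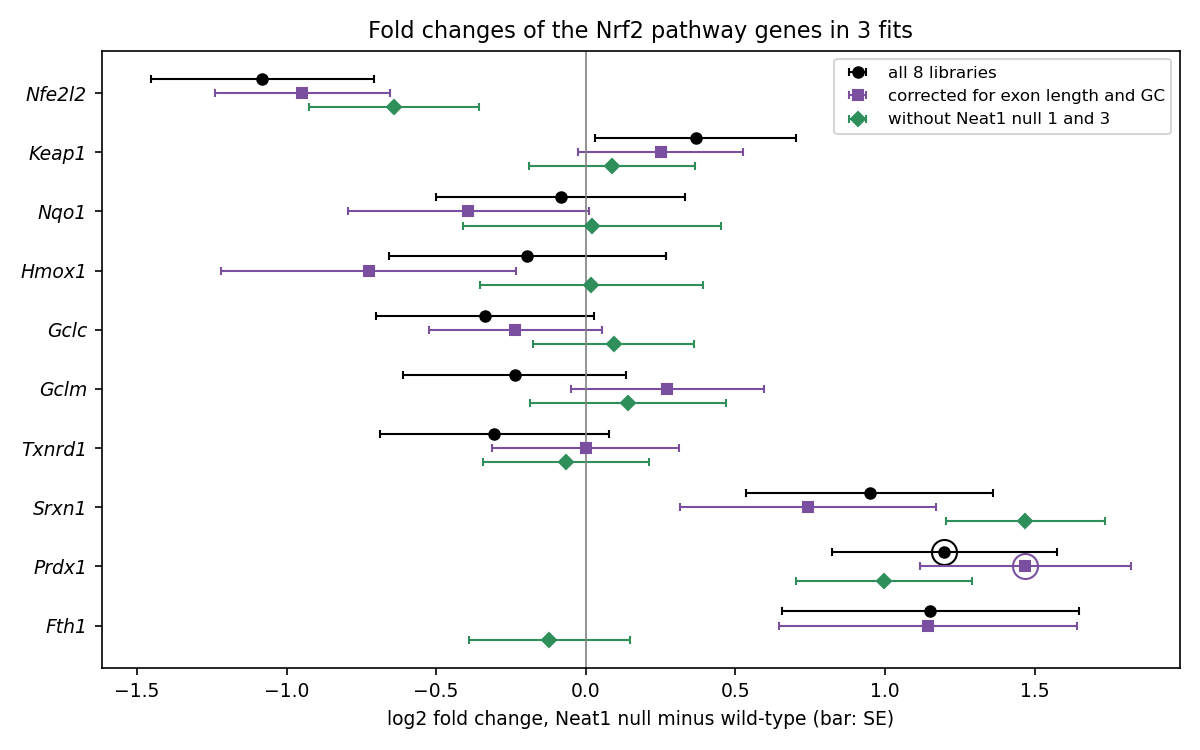
Log2 fold change (Neat1 null minus wild-type, bars are the SE) of the 10 genes with all 8 libraries, after correction for exon length and GC content, and without Neat1 null libraries 1 and 3. Large open circles mark adjusted p under 0.05, which is Prdx1 with all libraries (1.20) and after the correction (1.47), and Fth1 changes sign (1.15 with all libraries, -0.12 without Neat1 null libraries 1 and 3).

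Srxn1, sulfiredoxin, the enzyme that repairs over-oxidised peroxiredoxins (chromosome 2, 152105516 to 152111376, plus strand), had 114, 219, 96.9 and 333 CPM in Neat1 null libraries, against 88.2, 123, 98.2 and 85.7 CPM in wild-type libraries. Neat1 null libraries 2 and 4 stood above all wild-type libraries, while Neat1 null libraries 1 and 3 lay within their range. The log2 fold change was 0.95 (SE 0.41, adjusted p = 0.113), and without Neat1 null libraries 1 and 3 it was 1.47 (adjusted p = 0.144). Without Neat1 null library 4 it was 0.54 (adjusted p = 0.374). Prdx1 reads per Srxn1 read were 5.56, 2.37, 7.63 and 1.62 in Neat1 null libraries, against 4.39, 1.999, 2.40 and 2.23 in wild-type libraries. Enzyme and repair partner did not keep a constant ratio in either group.

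Fth1, the ferritin heavy chain, which oxidises and stores iron (chromosome 19, 9980598 to 9985098, plus strand), had 979, 308, 1325 and 299 CPM in Neat1 null libraries, against 245, 346, 351 and 368 CPM in wild-type libraries. Here Neat1 null libraries 1 and 3 were the high ones and libraries 2 and 4 lay within the wild-type range, the reverse of Srxn1. Fth1 did not pass in edgeR (log2 fold change 1.15, SE 0.50, adjusted p = 0.111). The value was -0.12 without Neat1 null libraries 1 and 3, and DESeq2 called it with 1.23 (adjusted p = 0.0492). Fth1 has a short mRNA of 929 bases but 3469 bases of annotated exon sequence. With a length correction by exon sequence its log2 fold change was 1.14, and with a correction by the RefSeq mRNA (chosen after the data were seen) it was 0.24 (adjusted p = 0.695). The light chain gene Ftl1, named after its values were seen, had 3488, 1965, 4435 and 1700 CPM in Neat1 null libraries, against 970, 2178, 1322 and 1004 CPM in wild-type libraries (log2 fold change 1.08, SE 0.48, adjusted p = 0.122). Fth1 reads per Ftl1 read ranged from 0.157 to 0.299 in Neat1 null and from 0.159 to 0.367 in wild-type libraries. Ferritin genes have processed pseudogenes in the mouse genome, and how reads shared with them were counted was not given in the sources used here.

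Hmox1, haem oxygenase 1, which breaks haem down to biliverdin, iron and carbon monoxide (chromosome 8, 75093621 to 75100589, plus strand), varied most within the groups. It had 16.6, 59.0, 85.5 and 85.0 CPM in Neat1 null libraries, against 70.6, 69.8, 104 and 37.8 CPM in wild-type libraries, a 5.14-fold range among Neat1 null and a 2.74-fold range among wild-type libraries. Neat1 null library 1 alone lay below the wild-type range, and Hmox1 did not pass (log2 fold change -0.19, SE 0.46, adjusted p = 0.783). Nqo1, the quinone reductase often used as a readout of Nrf2 activity (chromosome 8, 107388225 to 107403206, minus strand), was low in every library. It had 4.85, 7.74, 8.22 and 7.81 CPM in Neat1 null libraries, against 5.89, 6.61, 12.3 and 5.60 CPM in wild-type libraries, from as few as 54 reads in Neat1 null library 1. Nqo1 did not pass (log2 fold change -0.08, SE 0.42, adjusted p = 0.897), and both genes changed sign when Neat1 null library 1 was left out (0.12 for Hmox1 and 0.06 for Nqo1) or when wild-type library 3 was left out (0.05 for Hmox1 and 0.25 for Nqo1).

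**Figure D3:**
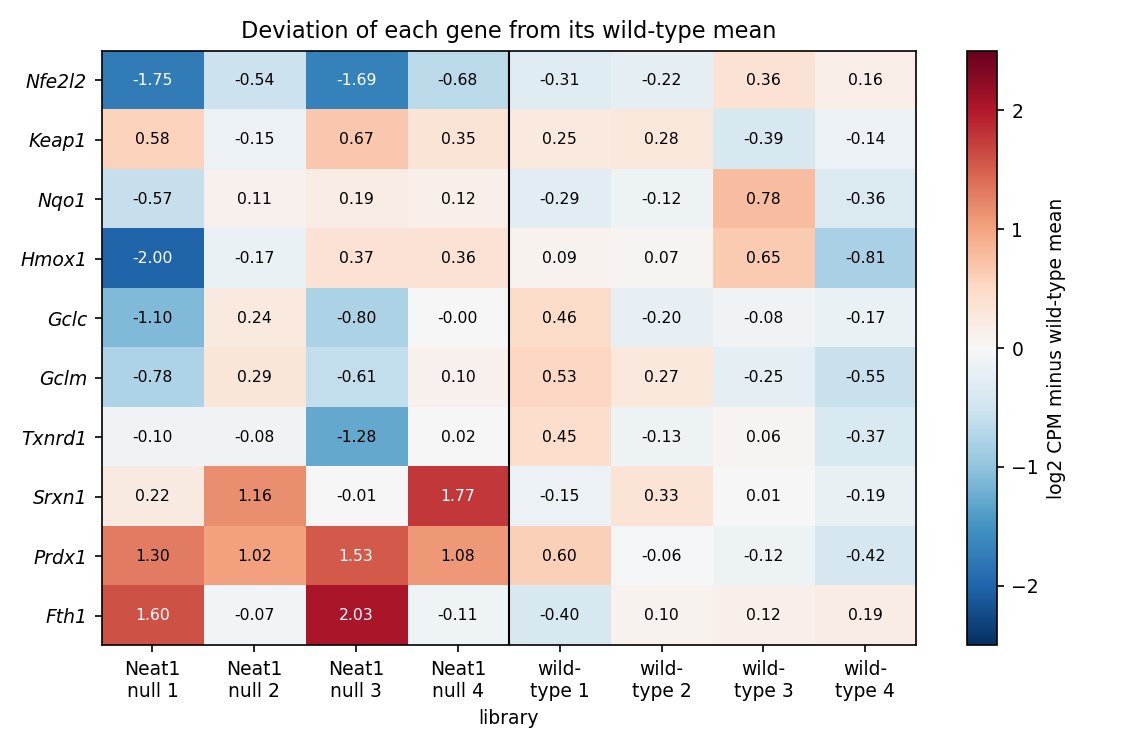
Log2 CPM of the 10 genes in each library minus the mean log2 CPM of the 4 wild-type libraries, with Neat1 null libraries left of the line. Neat1 null libraries 1 and 3 hold the lowest Nfe2l2 (-1.75 and -1.69) and the highest Fth1 (1.60 and 2.03), Neat1 null libraries 2 and 4 the highest Srxn1 (1.16 and 1.77), and Prdx1 is raised in all 4 (1.02 to 1.53).

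Levels of the genes relative to each other were compared per kilobase of the longest transcript that GENCODE links to a RefSeq mRNA. Fth1 was the highest, with 783 ± 549 CPM per kilobase in Neat1 null and 353 ± 60.1 in wild-type libraries (SD, n = 4 each), followed by Prdx1 with 265 ± 43.9 and 116 ± 37.0. In wild-type libraries the order below them was Txnrd1 (82.2 ± 20.3 CPM per kilobase), Hmox1 (44.9 ± 17.2), Nfe2l2 (38.9 ± 8.55), Srxn1 (35.1 ± 6.09), Keap1 (29.2 ± 6.35), Gclc (14.1 ± 3.28), Nqo1 (4.90 ± 2.05) and Gclm (4.78 ± 1.57). From Prdx1 down to Keap1 each gene overlapped its neighbour in range, as did Nqo1 and Gclm, while Fth1 stood above Prdx1 and Gclc stood apart from both its neighbours. In Neat1 null libraries Srxn1 (67.8 ± 38.9 CPM per kilobase) averaged just above Txnrd1 (66.5 ± 22.4), and Nfe2l2 (18.4 ± 7.88) averaged below Keap1 (37.6 ± 8.70).

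By distance between centred log2(CPM + 1) profiles over the 8 libraries, the genes closest to Nfe2l2 among 9639 were Nedd4 (0.347), Nudt12 (0.389), Golph3 (0.407), Ttc21b (0.428) and Rbl2 (0.433), where the median gene lay at 2.48. Those closest to Nqo1 were Prkag2 (0.517), Maged1 (0.526), Pdia5 (0.567), Dbn1 (0.608) and Ndrg3 (0.634), with a median of 1.96.

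Another 112 genes of the pathway and of antioxidant defence were grouped by role in 7 lists, and 98 passed the count filter. Of these 22 were higher and 5 lower in Neat1 null libraries, against 9.97% higher and 7.72% lower over all genes tested, and their median log2 fold change was 0.41 (all genes -0.06). After the length and GC correction 16 were higher and 4 lower (7.71% and 4.72% of all genes). The median of the lists was then 0.24, against 0.09 for all genes. With the correction by RefSeq mRNA 10 were higher and 5 lower (3.24% and 2.60% of all genes, 5.84% in all). The median of the lists was then 0.20, against 0.11 for all genes. Genes of these lists have a median exon length of 3508 bases, against 4460 bases for all genes tested. Of the 27 calls 0 passed (edgeR) when Neat1 null library 3, Neat1 null libraries 1 and 3 together, wild-type library 3 or wild-type library 4 was left out. The 27 were chosen in a fit that held all these libraries, so a kept direction is no separate evidence. The direction was kept by all 27 in each of these reduced fits. Many were smaller without Neat1 null libraries 1 and 3, where the log2 fold change of Pgls was 0.37 (2.24 with all libraries), Park7 0.55 (1.69), Cbr3 0.58 (1.56), Taldo1 0.60 (1.37), Blvra 0.62 (1.30) and Sod1 0.85 (1.88). Txnrd2 then had 0.85 (1.39 with all libraries), Msrb1 0.85 (1.60), Rbx1 0.89 (1.68), Prdx2 0.97 (1.86), Glrx3 1.32 (2.51) and Glrx5 1.63 (2.74). Leaving out Neat1 null library 1 alone gave 1.27 for Pgls (adjusted p = 0.0688), 0.99 for Park7 (0.0755) and 0.76 for Blvra (0.115), and leaving out Neat1 null library 3 alone gave 1.04 for Cbr3 (0.122).

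**Figure D4:**
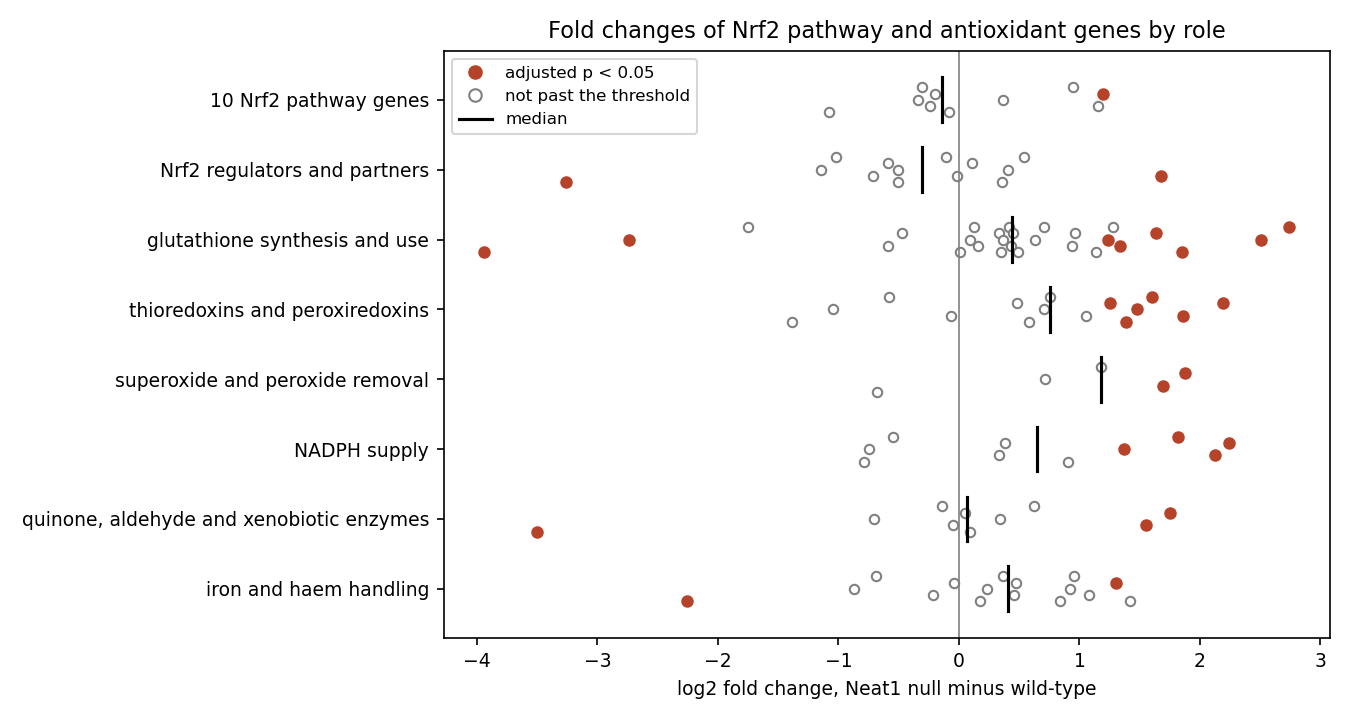
Log2 fold change (Neat1 null minus wild-type) of the tested genes of each role, with the 10 Nrf2 pathway genes on top; filled points passed adjusted p under 0.05 and black bars are medians. The medians run from -0.31 for regulators and partners of Nrf2 to 1.18 for superoxide and peroxide removal.

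Among 14 regulators and partners of Nrf2, 1 was higher and 1 lower (9.97% and 7.72% of all genes tested), with a median log2 fold change of -0.31. Rbx1, the RING subunit of the Cullin 3 ligase that Keap1 serves, had 437, 140, 289 and 156 CPM in Neat1 null libraries, against 100, 93.0, 55.7 and 69.7 CPM in wild-type libraries (1.68 on the log2 scale, SE 0.42, adjusted p = 0.0212). Rbx1 serves other cullins too. Nfe2l3, a relative of Nrf2 in the same family of factors, was lower (log2 fold change -3.26, SE 0.70, edgeR adjusted p = 0.0180). It had 0.539, 0.587, 0.212 and 0.596 CPM in Neat1 null libraries, against 1.22, 2.17, 7.18 and 8.03 CPM in wild-type libraries. The Neat1 null values rest on 6, 20, 6 and 19 reads. Bach1, the repressor that competes with Nrf2 for its sites, had 19.3, 38.3, 11.0 and 34.1 CPM in Neat1 null libraries, against 46.3, 52.4, 53.4 and 75.2 CPM in wild-type libraries; it did not pass (-1.14, SE 0.40, adjusted p = 0.0576) and is named after its values were seen. Bach1 reads per Nfe2l2 read overlapped, with 0.376 to 0.687 in Neat1 null and 0.440 to 0.710 in wild-type libraries.

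In the glutathione list 28 genes were tested, of which 6 rose and 2 fell (9.97% and 7.72% of all genes tested). The median log2 fold change of the list was 0.44. Gss, glutathione synthetase, which follows glutamate-cysteine ligase, rose to 227, 109, 226 and 162 CPM in Neat1 null libraries, against 91.2, 64.0, 43.2 and 35.4 CPM in wild-type libraries (log2 fold change 1.63, SE 0.40, adjusted p = 0.0200). The glutaredoxin genes Glrx5 and Glrx3, whose products act in iron-sulfur cluster handling, rose by 2.74 (SE 0.55) and 2.51 (SE 0.52) on the log2 scale. Mgst1, a membrane-bound glutathione transferase, fell to 0.0898, 0.645, 0.706 and 1.82 CPM in Neat1 null libraries, against 2.81, 5.08, 19.8 and 24.7 CPM in wild-type libraries (log2 fold change -3.94, SE 0.80). All 4 were called after the length and GC correction (adjusted p = 0.0350 each). The Mgst1 values of Neat1 null libraries 1 to 4 rest on 1, 22, 20 and 58 reads.

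Among thioredoxins, peroxiredoxins and related genes 6 of 15 rose and 0 fell by edgeR (9.97% and 7.72% of all genes tested). Their median log2 fold change was 0.76. At an unadjusted p under 0.05, 2 were lower (2309 of all 13316 genes), and by DESeq2 1 was lower (11.0% of all genes). Prdx2, the cytosolic relative of Prdx1, had 914, 317, 1016 and 398 CPM in Neat1 null libraries, against 213, 184, 184 and 146 CPM in wild-type libraries (log2 fold change 1.86, SE 0.44, adjusted p = 0.0190). Txnrd2, the mitochondrial thioredoxin reductase, had 47.6, 23.7, 51.6 and 28.6 CPM in Neat1 null libraries, against 18.3, 18.8, 9.39 and 11.4 CPM in wild-type libraries (1.39, SE 0.38, adjusted p = 0.0266), where Txnrd1 did not pass. Whether the 2 reductase genes differ from each other in fold change was not tested. Msra, which reduces oxidised methionine, rose by 2.19 on the log2 scale (SE 0.49). Msrb1, which does the same for the other stereoisomer, rose to 76.8 ± 36.7 CPM in Neat1 null, against 25.2 ± 5.21 CPM in wild-type libraries (SD, n = 4 each, adjusted p = 0.0198). With length and GC corrected, Msrb1 had a log2 fold change of 0.72 (adjusted p = 0.0626) and no longer passed, and with the correction by RefSeq mRNA Txnrd2 did not pass either (0.91, adjusted p = 0.0697).

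Of the superoxide and peroxide genes 2 of 5 rose and 0 fell by edgeR (0 lower at an unadjusted p under 0.05 and 0 by DESeq2). Over all genes tested 9.97% rose and 7.72% fell by edgeR and 11.0% fell by DESeq2. At an unadjusted p under 0.05, 2309 of all 13316 genes were lower. Sod1, the cytosolic superoxide dismutase, had 1751, 448, 1087 and 482 CPM in Neat1 null libraries, against 326, 271, 188 and 241 CPM in wild-type libraries (log2 fold change 1.88, SE 0.48, adjusted p = 0.0227), and Park7, a redox-sensitive protein, rose by 1.69 (SE 0.48, adjusted p = 0.0287) and was not called after the length and GC correction (1.29, adjusted p = 0.0693). Sod1 has an mRNA of 641 bases, and its log2 fold change was 0.92 (adjusted p = 0.0822) with the correction by RefSeq mRNA. Cat, catalase, did not pass (-0.68, edgeR adjusted p = 0.153). All its Neat1 null values (16.65 to 34.6 CPM) lay below the wild-type ones (36.5 to 51.9 CPM), as in 11.0% of genes tested. Sod2 (0.71, adjusted p = 0.149) and Ccs (1.18, 0.0712) did not pass in edgeR either, and their groups overlapped. In the NADPH list 4 of 10 rose and 0 fell by edgeR (1 lower at an unadjusted p under 0.05, 0 by DESeq2). They were transketolase (Tkt, 2.13, SE 0.46), phosphogluconate dehydrogenase (Pgd, 1.82, SE 0.42), 6-phosphogluconolactonase (Pgls, 2.24, SE 0.61) and transaldolase (Taldo1, 1.37, SE 0.41). G6pdx, glucose-6-phosphate dehydrogenase, the rate-limiting enzyme ahead of Pgls and Pgd, had 0.33 (adjusted p = 0.608) and its groups overlapped. Below 0 without passing were Me1, malic enzyme (-0.79, adjusted p = 0.112), Idh1, isocitrate dehydrogenase (-0.75, 0.276), and Nnt, the mitochondrial transhydrogenase (-0.55, 0.262). Tkt and Pgd were called after both length corrections, and Pgls (adjusted p = 0.0515) and Taldo1 (0.0898) were not called after the correction by exon length. Pgls shares 20.6% of its exon bases with Fam129c on the same strand.

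Among quinone, aldehyde and xenobiotic enzymes 10 genes were tested, of which 2 rose and 1 fell (9.97% and 7.72% of all genes tested). The median log2 fold change of the list was 0.07. Akr1a1, an aldehyde reductase, had 597, 584, 1846 and 708 CPM in Neat1 null libraries, against 311, 343, 272 and 182 CPM in wild-type libraries (log2 fold change 1.75, SE 0.47, adjusted p = 0.0240), and did not pass with the correction by RefSeq mRNA (1.43, adjusted p = 0.0593). Cbr3, a carbonyl reductase, rose by 1.56 (SE 0.47, adjusted p = 0.0358) with groups that overlapped, and had 0.54 (adjusted p = 0.278) after the length and GC correction. Aox1, aldehyde oxidase, fell (SE 0.76 on the log2 scale, adjusted p = 0.0181), with a mean of 0.211 ± 0.159 CPM in Neat1 null and 2.64 ± 1.81 CPM in wild-type libraries (SD, n = 4 each), and with at most 0.345 CPM in Neat1 null and 1.03 to 5.13 CPM in wild-type libraries. The Aox1 values of Neat1 null libraries 1 to 4 rest on 0, 11, 5 and 11 reads. Of the iron and haem genes 1 of 16 rose and 1 fell, against the same 9.97% and 7.72% of all genes. Blvra, biliverdin reductase, which acts after Hmox1, had 170, 51.9, 69.9 and 57.3 CPM in Neat1 null libraries, against 40.6, 44.9, 28.7 and 27.0 CPM in wild-type libraries (log2 fold change 1.30, SE 0.41, adjusted p = 0.0421). Slc40a1, ferroportin, the iron exporter, fell to 1.17, 2.17, 1.59 and 2.54 CPM in Neat1 null libraries, against 2.12, 10.1, 11.6 and 12.4 CPM in wild-type libraries (-2.26, SE 0.56, adjusted p = 0.0200). After the length and GC correction Blvra (1.29, adjusted p = 0.0510) and Slc40a1 (-1.48, adjusted p = 0.0862) no longer passed.

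Macrophages are rich in Hmox1 and ferritin. Of the leukocyte markers, Ptprc and Tyrobp had no reads and Csf1r, Itgam and Lyz2 stayed below 1 CPM in all libraries, so 5 of the 7 leukocyte markers in the files were below 1 CPM. The summed level of these 7 markers was 13.1 to 32.3 CPM in Neat1 null and 15.0 to 108 CPM in wild-type libraries, nearly all of it Cd68 and Cd14. Cd68, a lysosomal protein, was called lower, with 3.68, 11.2, 18.3 and 15.7 CPM in Neat1 null libraries, against 8.88, 102, 68.2 and 92.4 CPM in wild-type libraries (log2 fold change -2.47, SE 0.64, adjusted p = 0.0239). Cd14 had 8.74 to 13.6 CPM in Neat1 null and 5.09 to 6.50 CPM in wild-type libraries and did not pass (0.85, adjusted p = 0.116). Erythroid markers, of which 3 were in the files, summed to at most 1.53 CPM in Neat1 null and 1.06 CPM in wild-type libraries.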

How the data were processed

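Raw counts per gene symbol, as the authors deposited them for each library, were the only input. The submitters' processing notes name CASAVA 1.8, STAR, DESeq2 and mm10 with no roles, and per the labels a stranded TruSeq kit was used. Read counter, strand setting and annotation are not given in the sources used here. Entries that name no gene were left out: reads outside genes (5.48% to 11.0% in Neat1 null, 9.83% to 15.7% in wild-type libraries) and ambiguous reads (1.34% to 1.76% in Neat1 null, 1.09% to 1.22% in wild-type libraries).

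The filterByExpr function (edgeR 4.0.16, R 4.3.3) with a minimum count of 10 kept 13316 genes. After TMM scaling, genotype was the only term of a robust quasi-likelihood fit in edgeR, whose F test is 2-sided, with Benjamini-Hochberg adjustment over these 13316 and 0.05 as threshold. SE is the absolute log2 fold change over the square root of F. The code was tested on simulated data. DESeq2 1.42.0, other scalings and filters, single libraries left out, a replicate block and sex were alternatives. The smallest chi-square per degree of freedom between libraries of 1 group was 62.07, so none was a repeat deposit.

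Exon lengths and positions are from GENCODE M21 (GRCm38, also called mm10), which matched 21785 symbols as written and 1281 by synonym, leaving 354. Length and GC trends were removed with spline offsets (5 degrees of freedom). Promoters are from RefSeq (GRCm38.p6).

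Members, lists and the naming rule (per list up to 4 called genes of smallest p, and the 5 nearest patterns among genes averaging 3 log2 CPM or more) were chosen with earlier results of these data known. Ftl1, Bach1, Cat, Sod2, Ccs, G6pdx, Me1, Idh1, Nnt and the marker genes are named outside it.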

Additional observations from a re-analysis of the deposited data

Results flagged for a closer look

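In groups of 4 libraries, a library was marked where its gap to the nearest other library took up more of the group's range than Dixon's 95% critical value allows, which chance does in about 1 of 20 groups; 64 groups were looked at and 8 marked. Among the 10 Nrf2 pathway genes, Neat1 null library 1 was low for Nqo1 (4.85 CPM, others 7.74 to 8.22) and Neat1 null library 3 low for Txnrd1 (120 CPM, others 272 to 295). Wild-type library 3 was high for Nqo1 (12.3 CPM, others 5.60 to 6.61) and wild-type library 1 high for Gclc (65.0 CPM, others 41.3 to 44.7). Among the listed genes, Neat1 null library 3 was low for Nfe2l3 (0.212 CPM, others 0.539 to 0.596) and high for Akr1a1 (1846 CPM, others 584 to 708), Neat1 null library 1 was high for Blvra (170 CPM, others 51.9 to 69.9) and wild-type library 2 high for Msrb1 (33.0 CPM, others 22.0 to 23.2).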

How the results depend on the processing

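The 10 genes gave 1 call higher and 0 lower with edgeR, where 9.97% and 7.72% of all genes tested were called. At an unadjusted p under 0.05 they gave 3 higher and 1 lower (2480 and 2309 of all 13316 genes). There were 0 higher without the low-count filter (Prdx1 1.21), with the replicate block (Prdx1 1.23), at an adjusted p under 0.01 (Prdx1 1.20) and without Neat1 null libraries 1 and 3 (Prdx1 1.00). There were 2 higher with DESeq2 (Fth1 1.23) and with sex as a covariate (Fth1 2.02), and 1 lower, Nfe2l2, with upper-quartile factors (-1.27), DESeq2 (-1.04) and sex as a covariate (-1.71). In that last fit the genotype effect rests on Neat1 null library 3 by construction, the only female one, and Nqo1 (0.11), Hmox1 (0.28) and Srxn1 (-0.0276) changed sign. Upper-quartile factors moved the median of all genes to -0.24.

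Without Neat1 null libraries 1 and 3 the sign changed for Nqo1 (0.0204), Hmox1 (0.0189), Gclc (0.0939), Gclm (0.14) and Fth1 (-0.12), after the length and GC correction for Gclm (0.27) and Txnrd1 (0.0003), and with that by RefSeq transcript for Gclm (0.57). The median of the 10 genes was 0.125 after the length and GC correction and 0.0771 with that by RefSeq transcript. The median of all genes tested changed sign too, from -0.0598 to 0.0943 and 0.1106. With 1 library left out, fold changes ran from -1.29 to -0.90 for Nfe2l2, -0.21 to 0.25 for Nqo1, -0.40 to 0.12 for Hmox1 and 1.07 to 1.45 for Prdx1. The median of the 10 ran from -0.3009 to 0.1506. Calls among the 10 ran from 0 to 1 higher and 0 to 1 lower, and without Neat1 null library 2 there was 1 of each. Calls over the lists ran from 0 to 24 higher and 0 to 7 lower, and calls over all genes from 11 to 2965.

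Of all genes 7 passed at an adjusted p under 0.01, 7 without Neat1 null libraries 1 and 3 and 777 after the correction by RefSeq transcript. Of the lists 0 higher and 0 lower passed at 0.01 or without those libraries, 10 were higher with that correction, and 8 were lower with upper-quartile factors and DESeq2. Except as given for sex, the causes were not tested. The deviations of same-numbered libraries from their group means correlated at r = 0.319, -0.252, -0.0112 and 0.116 for numbers 1 to 4. No reference was set for these values, so whether the numbers pair libraries was not settled. Under the replicate block 2245 genes and 22 of the 27 list calls passed.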
